A study of Mus musculus with 8 samples.

Results

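The miR-7 family and miR-671 are the microRNAs tied to the circular RNA Cdr1as, and 7 of their mature products were taken by name from small RNA libraries of mouse prefrontal cortex. They are mmu-miR-7a-5p, mmu-miR-7b-5p, mmu-miR-7a-1-3p, mmu-miR-7a-2-3p, mmu-miR-7b-3p, mmu-miR-671-5p and mmu-miR-671-3p, 7 of 1915 listed names, written below without the prefix for mouse. All 7 were present and reached the level needed for testing, as did 599 names in all. The libraries came from C57BL/6 mice aged 12 weeks, 4 of them wild type (replicates 1, 2, 3 and 4) and 4 labelled Fkbp5 Knockout (replicates 1, 2, 4 and 5). The product of Fkbp5 works with Hsp90 and makes the glucocorticoid receptor less sensitive to hormone. The labels do not say how the gene was disrupted, whether the loss is confined to a cell type, or whether each library is a separate animal. p-values therefore measure only the spread between these libraries, which may be technical.

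miR-7 is an old, conserved microRNA that is abundant in neurons and in hormone-secreting cells. In the mammalian brain, Cdr1as carries an exceptional number of miR-7 seed matches and binds miR-7 without being destroyed by it. miR-671-5p pairs almost fully with Cdr1as and can direct its cleavage, and the long noncoding RNA Cyrano carries a site with extended pairing that is known to trigger the decay of miR-7. Cdr1as and Cyrano are too long to be read by a small RNA library, so only their sequences enter here.

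The mature sequences are shown because the whole network rests on them, with the seed (bases 2 to 8) in capitals. They are those of RefSeq on GRCm38.p6, where all 7 names were matched. The first 2 share 1 seed.
mmu-miR-7a-5p: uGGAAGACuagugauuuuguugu
mmu-miR-7b-5p: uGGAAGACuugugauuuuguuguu
mmu-miR-7a-1-3p: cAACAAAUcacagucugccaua
mmu-miR-7a-2-3p: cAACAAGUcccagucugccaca
mmu-miR-7b-3p: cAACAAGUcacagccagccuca
mmu-miR-671-5p: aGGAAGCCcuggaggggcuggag
mmu-miR-671-3p: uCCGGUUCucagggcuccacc

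Counting from 1 at the 5′ end, miR-7a-5p and miR-7b-5p differ by A10U over 23 compared bases, and miR-7b-5p is 1 base longer (24 against 23). Their seed, GGAAGAC, was held by no other mature mouse miRNA of the RefSeq set. Of the 1915 listed names 1623 were matched to that set, and the rest could not be searched. The 3p arms carry other seeds: AACAAGU in miR-7a-2-3p and miR-7b-3p, and AACAAAU in miR-7a-1-3p, which differs from miR-7a-2-3p by A7G, A10C and U21C. The seed of miR-671-5p, GGAAGCC, is that of miR-7 but for A7C. A single base separates miR-7a-5p from miR-7b-5p, and the settings used to assign reads are not given in the sources used here, so some reads could have been split between those names.

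miR-7a-5p is made from a pair of hairpins with the same 5p sequence, and its value cannot be divided between them. Mir7-1 lies on chromosome 13 (58392779 to 58392886, minus strand, GRCm38) in an intron of Hnrnpk, which encodes an RNA-binding protein. Mir7-2 lies on chromosome 7 (78888277 to 78888373) and Mir7b on chromosome 17 (56242988 to 56243098), both outside any other gene of the GENCODE M21 annotation. Fkbp5 is on chromosome 17 as well (28399094 to 28517527). Mir671 lies on chromosome 5 (24592114 to 24592211). It overlaps coding exon sequence of Chpf2, a gene of chondroitin synthesis, on the same strand, and an annotated exon of Smarcd3 on the opposite strand.

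The target sequences show what these products can pair with. The Cdr1as exon, annotated in the noncoding gene C230004F18Rik, spans 2927 bases of the X chromosome (61183248 to 61186174, plus strand) opposite the gene Cdr1. It holds 123 copies of GTCTTCC, the match to the miR-7 seed, on its sense strand and 0 on the other. Of the first 2927 bases of 25516 other GENCODE M21 transcripts at least that long, 23.9% held at least 1 copy and the highest number was 4, in Smpd4. Neighbouring copies started 17 to 109 bases apart, and 86 of the 122 distances were 18 bases. An A after the match, which strengthens target recognition by many miRNAs, followed 34 of the 123, and 29 of these stood in the first 1000 bases, where 45 of the matches lie.

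The sites that pair best are printed with capitals for the bases complementary to the miRNA, position by position and without gaps, from GENCODE M21 on GRCm38. G:U pairs are not counted. The last shows the site of Cyrano, which the annotation calls 1700020I14Rik, with a loop between its paired parts.
miR-671-5p site in Cdr1as, chrX:61186029-61186051, plus strand: tTCCAGCatCTCCAGGGCTTCCa
miR-7a-5p site in Cdr1as, chrX:61183571-61183593, plus strand: tCcAgAAAAatcCaAGTCTTCCA
miR-7a-5p site in Cdr1as, chrX:61183723-61183745, plus strand: tCcAgAAAAatcCagGTCTTCCA
miR-7a-5p site in Cyrano, chr2:119602137-119602161, plus strand: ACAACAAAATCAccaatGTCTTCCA

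The miR-671-5p site matched at 19 of 23 positions, and the mismatches stood opposite bases 1, 15, 16 and 23 of the miRNA. Its seed match, GGCTTCC, occurred 1 time in the exon. Without a loop, the best of the 123 miR-7 sites matched miR-7a-5p at 16 of 23 positions and the median site at 13. Most thus matched only part of the sequence beyond the seed. Cyrano, for which a loop was allowed, held 2 seed matches in its 8300-base transcript. In the printed site, 5 bases stood between the seed match and 12 of 12 matches with bases 12 to 23 of miR-7a-5p. The Cdr1as sites were not searched with a loop, so these counts are not directly comparable.

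**Figure D1:**
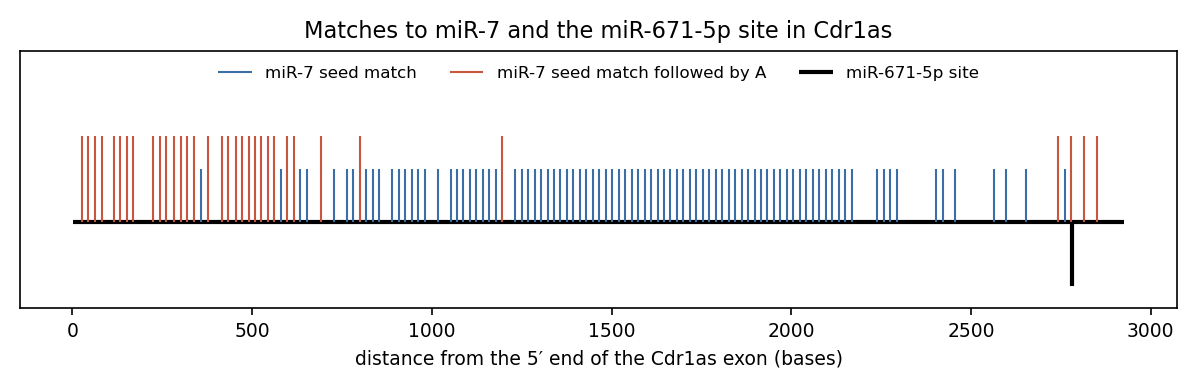
Positions, in bases from the 5′ end of the 2927-base Cdr1as exon, of the 123 miR-7 seed matches (lines upward, taller where an A follows the match) and of the miR-671-5p site (line downward). The 34 matches followed by an A crowd the first 1000 bases, and the miR-671-5p site starts at base 2782.

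The data themselves are values per mature name, which the file headers call normalized counts. They were rescaled between libraries, and all levels below are such rescaled values unless stated. Library totals of the deposited values ran from 16.2 to 21.6 ×10⁶ in wild type and from 17.7 to 19.8 ×10⁶ in the knockout. Small RNA libraries do not hold the Fkbp5 messenger, and the genotype labels could not be checked. Neuron-enriched miRNAs had by far the highest sum of the cell type lists used (14 miRNAs, 7313180 to 9226990 over the wild-type libraries and 7260970 to 9277970 over the knockout ones), led by miR-128-3p. In whole tissue, fewer cells of a type and less RNA per cell cannot be told apart.

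The miR-7 guide strands ranked among the abundant cortical miRNAs, while every other product was far lower, with ranks from 227 (miR-7a-1-3p) to 400 (miR-7b-3p). miR-7a-5p was 22nd of all miRNAs by mean level, between miR-30a-5p (105365) and miR-29a-3p (91654), and held 0.317% to 0.758% of a library's values. miR-7b-5p, 43rd, averaged 31752 over the 8 libraries, against 94743 for miR-7a-5p. The remaining order was miR-7a-1-3p (810.0), miR-7a-2-3p (803.1), miR-671-3p (249.4), miR-671-5p (138.6) and miR-7b-3p (68.5). Each exceeded the next in 8 of 8 libraries, with ranges over libraries that did not overlap, except that miR-7a-1-3p and miR-7a-2-3p could not be ranked: the ratio of the former to the latter ran from 0.864 to 1.15. A level is per mature name, with no correction for length or for how well a sequence is ligated.

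**Figure D2:**
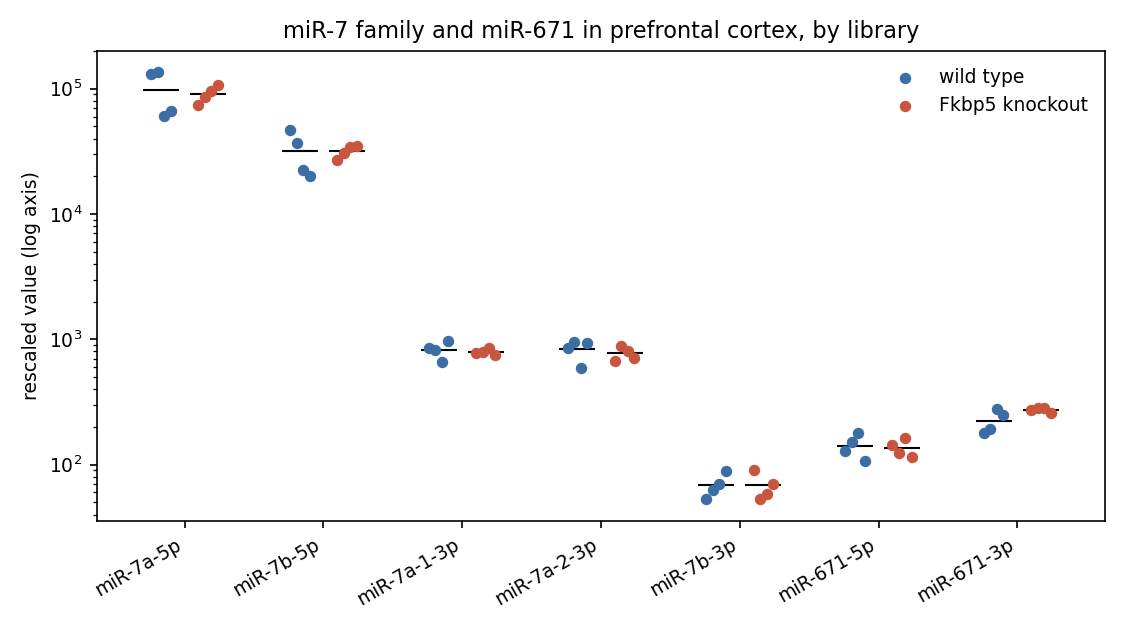
Rescaled values (log axis) of the 7 products in each wild-type (blue) and Fkbp5 knockout (red) library, with the mean of each group as a line. miR-7a-5p and miR-7b-5p stand far above the other products, and in all 7 the groups overlap.

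miR-7a-5p, which carries most of the miR-7 signal, did not differ detectably between genotypes, and its wild-type libraries fell into a high and a low pair. Wild-type replicates 1 to 4 held 130420, 135672, 61098.5 and 66870, and knockout replicates 1, 2, 4 and 5 held 74155, 86045, 96636 and 107045. All 4 knockout values lay inside the gap left by the wild-type pairs. Wild type averaged 98515 ± 40000 and the knockout 90970 ± 14113 (SD, n = 4 each), and the log2 fold change, knockout against wild type, was -0.03 ± 0.25 (SE; adjusted p = 0.994 by limma). Its 95% interval, 0.669-fold to 1.43-fold, leaves room for a moderate difference either way. That interval may be too narrow, since limma draws the SE toward that of miRNAs of like level, most of which spread less. Without the mean-variance trend the SE was 0.29. The sign turned positive without wild-type replicate 1 (0.14), wild-type replicate 2 (0.15) or knockout replicate 1 (0.06).

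miR-7b-5p, the product with the same seed from chromosome 17, showed the same layout. Wild-type replicates 1 to 4 held 46935, 37180, 22524 and 20174, and the knockout libraries 26843, 30933, 34500.5 and 34929. Again the knockout values sat between the high and the low wild-type pair. The log2 fold change was 0.08 ± 0.23 (SE; adjusted p = 0.994 by limma), with a 95% interval of 0.742-fold to 1.51-fold. Single libraries moved it as well: it was 0.31 without wild-type replicate 1, and negative without wild-type replicate 3 (-0.04) or 4 (-0.12). miR-7b-5p made up 24.5 ± 2.61% of the sum of both products for wild type and 26.0 ± 0.927% for knockout libraries (SD, n = 4 each). The mean log2 ratio of miR-7b-5p to miR-7a-5p differed by 0.12 (two-sided exact permutation p = 0.4 over 70 arrangements, smallest possible 0.0286).

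The 3p strands of miR-7, which are mostly discarded when the guide is loaded, were steadier. miR-7a-1-3p, which can come only from Mir7-1, held 860.2, 820.7, 660.4 and 964.6 over wild-type replicates 1 to 4 and 778.0, 786.9, 854.3 and 754.8 over the knockout libraries (log2 fold change -0.05 ± 0.13, SE). miR-7a-2-3p, which marks Mir7-2, held 860.2, 950.2, 585.4 and 939.1, then 675.1, 890.5, 808.3 and 716.1 in the knockout libraries (-0.09 ± 0.17). The deposited values of both arms were the same number, 957, in wild-type replicate 1 and differed in every other library. Leaving out 1 library moved miR-7a-2-3p between -0.24 (wild-type replicate 3 left out) and -0.02 (wild-type replicate 2 left out). In both, wild-type replicate 3 was the lowest library and the knockout values lay within the wild-type range.

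miR-7b-3p, the rarest of the 7, had wild-type values of 53.0, 62.3, 70.2 and 89.8 and knockout values of 91.3, 53.4, 58.6 and 69.6. Its log2 fold change was -0.02 ± 0.22 (SE), and wild-type replicate 4 and knockout replicate 1 were its highest libraries. The deposited values behind it were 51 to 81. Its SE was nevertheless smaller than those of miR-7a-5p (0.25) and miR-7b-5p (0.23), whose libraries were spread more widely.

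The miR-671 strands were both far below the miR-7 guide strands. miR-671-5p, the strand that targets Cdr1as, had wild-type values of 128.5, 151.2, 177.3 and 107.5 and knockout values of 143.3, 123.5, 163.2 and 114.2, a log2 fold change of -0.04 ± 0.19 (SE; adjusted p = 0.994 by limma). The 4 knockout values all lay within the wild-type range. miR-671-3p had wild-type values of 178.9, 191.9, 278.4 and 247.3 and knockout values of 271.7, 285.7, 284.4 and 256.7. Here the knockout values clustered at the upper end, but wild-type replicate 3 stood among them. Its log2 fold change of 0.31 ± 0.16 (SE) was the largest of the 7, with a 95% interval of 0.973-fold to 1.59-fold and an unadjusted p of 0.0766 (adjusted p = 0.994 by limma). Leaving out 1 library at a time moved it between 0.22 and 0.43, and over the 6 libraries of replicates 1, 2 and 4 it was 0.46.

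Of the 7 products, 0 passed an adjusted p of 0.05 by limma, against 0 of 599 miRNAs (0%). At an unadjusted p under 0.05 the counts were 0 of 7 and 24 of 599 (4.01%). The genotypes' libraries failed to overlap for 0 of 7 and for 9 of 599 (1.50%). By sign, 2 of the 7 were higher in the knockout and 5 lower (median log2 fold change -0.03), beside 323 higher and 276 lower (median 0.02) among all tested miRNAs. With upper quartile scaling, which moved the median of all miRNAs to 0.07, miR-7a-5p (0.02), miR-7a-1-3p (0.01), miR-7b-3p (0.04) and miR-671-5p (0.01) turned positive. The 95% interval of each product in the main fit excluded a 2-fold change in either direction (the outer limits over the 7 were 0.669-fold and 1.59-fold). These intervals rest on moderated SEs, and without the mean-variance trend the SE was 0.29 for miR-7a-5p and 0.27 for miR-7b-5p.

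**Figure D3:**
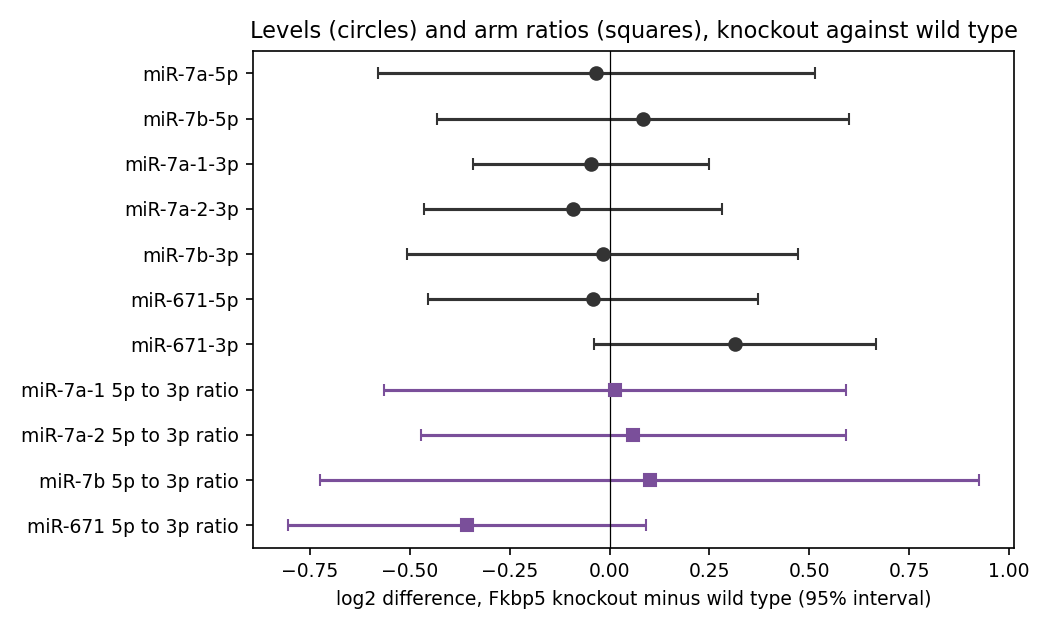
Log2 difference between Fkbp5 knockout and wild type with its 95% interval (limma, 4 libraries a group) for the 7 products (circles) and for the log2 arm ratios, 5p over 3p, of 4 hairpins (squares). Every interval includes 0, and miR-671-3p (0.31) and the miR-671 arm ratio (-0.36) lie farthest from it.

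Arm use was opposite in the 2 families. The miR-7 hairpins were read almost entirely from the 5p arm. The ratio of miR-7a-5p to miR-7a-1-3p was 151.5, 165.2, 92.4 and 69.3 for wild-type replicates 1 to 4 and 95.2, 109.3, 113.1 and 141.7 in the knockout libraries, and to miR-7a-2-3p it ran from 71.2 to 151.5. Since miR-7a-5p comes from both hairpins, each ratio overstates the arm preference of its own hairpin. miR-7b was the most one-sided, with ratios of 877.6, 592.9, 318.1 and 223.3 among wild-type and 292.1, 574.0, 583.4 and 499.1 among knockout libraries. For miR-671, by contrast, the 3p arm was the more abundant in each of the 8 libraries, the 5p to 3p ratios being 0.719, 0.788, 0.638 and 0.436 among wild-type and 0.529, 0.433, 0.575 and 0.446 among knockout libraries. The strand that targets Cdr1as was thus the minor product of its hairpin in these libraries.

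None of these 4 ratios passed between genotypes. Their log2 changes were 0.01 ± 0.27 (miR-7a-1), 0.06 ± 0.24 (miR-7a-2), 0.10 ± 0.38 (miR-7b) and -0.36 ± 0.21 (miR-671, SE), each with an adjusted p of 0.978 by limma over 170 hairpins, of which 0 (0%) passed. At an unadjusted p under 0.05 the counts were 0 of 4 and 4 of 170 (2.35%). The direction of the 3 miR-7 ratios turned with single libraries: without wild-type replicate 4 they were -0.22, -0.16 and -0.22, and that of miR-671 stayed negative, between -0.53 and -0.25, with any 1 library left out.

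The spread between libraries of 1 genotype set the miR-7 guide strands apart from miRNAs of like abundance. The within-genotype SD of the log2 level was 0.46 for miR-7a-5p and 0.43 for miR-7b-5p, and among the 67 miRNAs with a mean of at least 10000 these ranked 2nd and 3rd, after miR-328-3p (0.58). The median over those 67 was 0.16. The highest library held 2.22 times the lowest for miR-7a-5p and 2.33 times for miR-7b-5p, where the median of the 67 was 1.40. The 3p strands were closer to the median SD of all tested miRNAs, 0.26, with 0.17 for miR-7a-1-3p, 0.26 for miR-7a-2-3p and 0.33 for miR-7b-3p, and the miR-671 strands had 0.27 (5p) and 0.22 (3p). The arm ratio of miR-7b, whose 5p and 3p strands correlated at -0.74 over the 8 libraries, had an SD of 0.71, exceeded by 0.588% of the 170 hairpins.

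**Figure D4:**
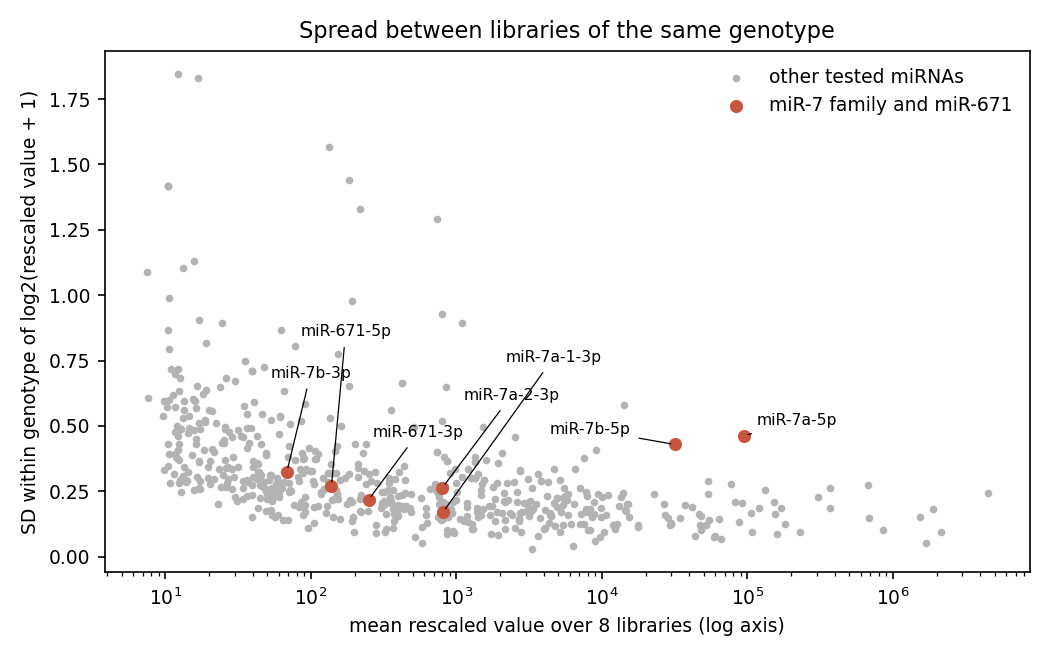
Within-genotype SD of log2(rescaled value + 1) against the mean rescaled value (log axis) of the 599 tested miRNAs, with the 7 products in red. miR-7a-5p (0.46) and miR-7b-5p (0.43) lie above nearly all miRNAs of their level, and the other 5 products lie within the cloud.

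The level of miR-7a-5p followed the total of the library it was measured in, after rescaling. In order of falling total, from wild-type replicates 2 and 1 through knockout replicates 5, 4, 2 and 1 to wild-type replicates 4 and 3, totals were 21.6, 21.5, 19.8, 19.0, 18.1, 17.7, 17.2 and 16.2 ×10⁶. miR-7a-5p fell without exception in that order: 135672, 130420, 107045, 96636, 86045, 74155, 66870 and 61098.5. The totals are sums of the deposited values. Those are whole numbers with unequal totals and may be raw counts despite their header, so whether the totals measure sequencing depth is not known. With no exception over all libraries, the order must also hold within the 4 libraries of each genotype, which adds nothing separate. Those are too few for a correlation of their own. Over the 8 libraries Pearson's r of the log2 level was 0.99 (exact permutation p = 2.48e-05) and Spearman's rho was 1 (exact permutation p = 4.96e-05), both the smallest p that 8 libraries can give. Without the 2 libraries farthest from the median total, wild-type replicates 1 and 2, r was 0.98. The relation was looked for after these values had been seen. Computed for all 599 miRNAs, it passed an adjusted p of 0.05 for 1 (0.167%), miR-7a-5p itself (adjusted exact permutation p = 0.0297).

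That call depends on the scaling. It was kept with scaling to the library total (rho 1, adjusted exact permutation p = 0.0297). The values as deposited passed too (rho 1, adjusted exact permutation p = 0.0099). Those values are unscaled, so any miRNA tends to rise with their sum, and that pass adds no separate support. How many of all tested miRNAs passed there is not given. It was lost under median of ratios scaling (rho 0.98, adjusted p = 0.114) and upper quartile scaling (rho 0.98, adjusted p = 0.119). With 7 libraries rho stayed between 0.96 and 1 with an adjusted p from 0.119 to 0.311, where the smallest unadjusted exact p is 0.000397. miR-7b-5p followed the total nearly as closely (r = 0.90, exact permutation p = 0.00213; rho = 0.95, exact permutation p = 0.00114; adjusted 0.137), and r was 0.88 without wild-type replicates 1 and 2. The 3p strands did not: rho was 0.26 for miR-7a-1-3p, 0.48 for miR-7a-2-3p and -0.62 for miR-7b-3p, and -0.05 and -0.50 for the 5p and 3p strands of miR-671 (exact permutation p from 0.115 to 0.935, adjusted 0.675 to 1; r from -0.80 to 0.52). For miR-671-3p, r was -0.80 (exact permutation p = 0.0188) and -0.05 without those 2 libraries, so it rests on them. Whether the total itself, the tissue taken or something else moved miR-7a-5p was not tested.

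**Figure D5:**
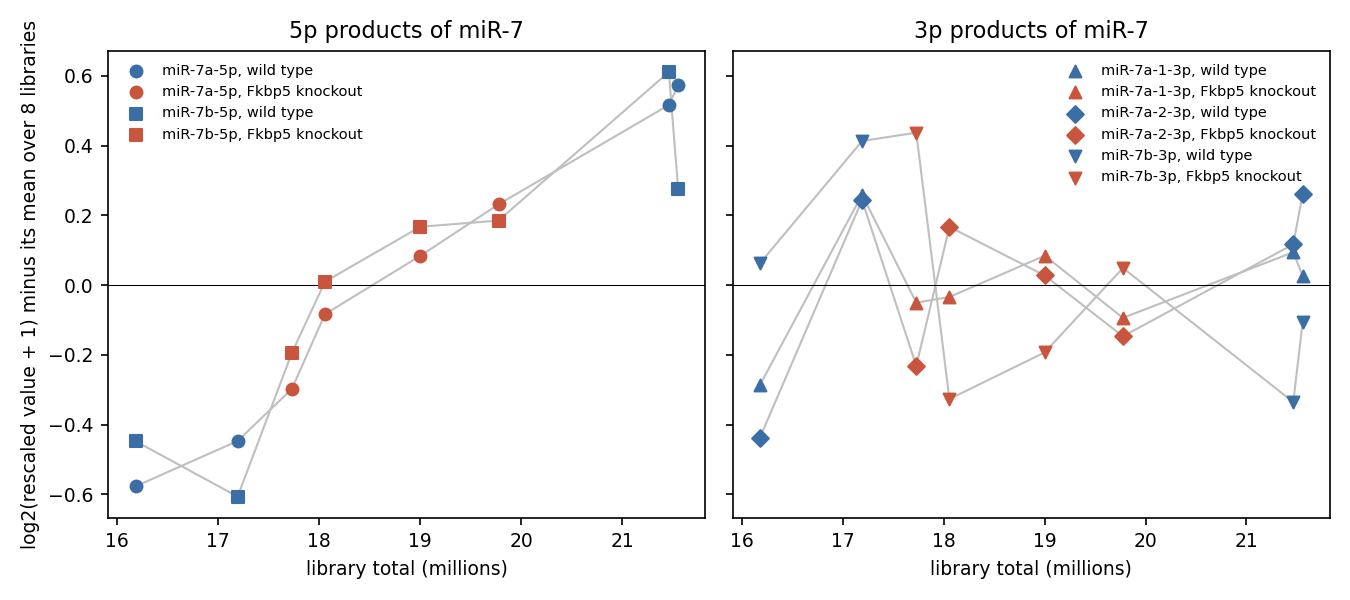
Log2(rescaled value + 1) minus its mean over the 8 libraries against the library total (×10⁶), for the 5p (left) and 3p (right) products of miR-7, with wild type in blue and the knockout in red and lines joining libraries in order of total. miR-7a-5p rises at every step and miR-7b-5p at all but the first and last, and the 3p products show no such order.

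The sums of the 6 cell type lists are given in the same order of falling total. Neuron-enriched miRNAs summed to 7313180, 8262560, 7260970, 8330820, 8159490, 9277970, 9226990 and 8898760, so the 3 libraries with the lowest totals held the 3 highest sums. Most of that range came from miR-128-3p, which ran from 3534480 to 5294360. The other 13 summed to 3778700, 3928790, 3703230, 3799660, 3714850, 3983600, 4018360 and 3934030, with the same 3 libraries highest by a small margin. The summed level of 9 neuroendocrine and epithelial miRNAs, among them miR-375-3p of hormone-secreting cells and the miR-200 family, was 6469, 3122, 6269, 1907, 1560, 1343, 2108 and 5551, high at both ends of the order. Its range was 2108 to 6469 for wild type and 1343 to 6269 for the knockout. Of its 8 tested members 1 was higher and 7 lower in the knockout (median log2 fold change -0.89, 0 past correction). None of the 9 was at 0 in all libraries. miR-375-3p itself averaged 343.7 ± 20.3 over the wild-type and 354.5 ± 63.7 over the knockout libraries (SD, n = 4 each). Microglial and leukocyte miRNAs summed to 10172, 8445, 8916, 9691, 13364, 12379, 10840 and 10054, with the 3 lowest sums among the 4 libraries of highest total. Nearly all of that sum was miR-150-5p (mean 9332 in wild-type and 10657 in knockout libraries), with miR-142a-5p next (414 and 322). Oligodendrocyte miRNAs summed to 24966, 30131, 19422, 23309, 24363, 25260, 21358 and 24559, with both extremes among the 3 highest totals. Vascular miRNAs summed to 101602, 72864, 61634, 55398, 87044, 66542, 81947 and 78300, and red blood cell miRNAs to 509, 298, 519, 354, 411, 458, 589 and 535. Neither of these followed the order of totals throughout. The part of cell type makeup in the spread of miR-7 was not tested.

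Among neuron-enriched miRNAs, 9 of 14 were higher in knockout libraries and 5 lower (median log2 fold change 0.06, 0 past correction). The 4 most abundant were miR-128-3p (-0.02 ± 0.14, SE), miR-9-5p (-0.03 ± 0.08), miR-9-3p (-0.14 ± 0.10) and miR-124-3p (0.06 ± 0.16). All 4 oligodendrocyte miRNAs were lower (median -0.18), but they are the 5p and 3p arms of miR-219a and miR-338 and not 4 separate markers. The abundant strands were miR-219a-2-3p (-0.15 ± 0.14) and miR-338-5p (-0.08 ± 0.13). The groups of miR-219a-5p (-0.60 ± 0.21) did not overlap, at a low level (mean 41.7 in wild-type and 27.1 in knockout libraries). Of 4 miRNAs of microglia and leukocytes, led by miR-150-5p (0.18 ± 0.15), 2 were higher and 2 lower (median -0.16). All 4 of endothelium and smooth muscle, led by miR-143-3p (-0.42 ± 0.17), were lower (median -0.10), as were both of red blood cells, led by miR-451a (-0.10 ± 0.21; median -0.17). Each list had 0 members past correction by limma. At an unadjusted p under 0.05 stood miR-219a-5p and miR-143-3p, beside 24 of all 599 tested miRNAs (4.01%).

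The miRNAs whose levels over the 8 libraries were most like miR-7a-5p outside its family were miR-669a-5p and miR-669p-5p (Pearson's r 0.96 each, with identical values), miR-34c-5p (0.89), miR-505-3p (0.84) and miR-217-5p (0.81). miR-7b-5p itself stood at 0.93. All are rarer than miR-7a-5p, with means from 53.6 (miR-217-5p) to 855.9 (miR-669a-5p). Those most like miR-671-5p were miR-491-5p (0.84), miR-30d-5p (0.83), miR-5129-3p (0.82), miR-30c-5p (0.79) and miR-26a-5p (0.75). The strands of miR-671 themselves correlated at 0.15, and miR-671-5p with miR-7a-5p at -0.09. These coefficients describe 8 libraries with unequal totals, which miR-7a-5p followed (r = 0.99). Within a library, all miRNAs share its total and scale factor.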

How the data were processed

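Small RNA of prefrontal cortex was sequenced in 4 wild-type and 4 Fkbp5 knockout libraries (NEXTflex kit, per the labels). Per the submitters' processing notes edgeR, HTSeq 0.6.1p1, Bowtie 1.1.2 and cutadapt 1.11 were used with build mm10; their order and settings are not given in the sources used here. The deposited values, which the authors' file headers call normalized counts, were handled as a score of no fixed unit. They are whole numbers with unequal totals and may be raw counts, which could not be settled here. Count tests, planned for the case of raw counts, were not run because the headers name the values normalized.

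Values were rescaled by a trimmed mean of log ratios (30% of ratios and 5% of levels trimmed at each end; factors 0.840 to 1.20). Tests covered names with a value of 10 or more (relative to the median library) in 4 or more libraries and a sum of 15. log2(rescaled value + 1) was compared with limma 3.58.1 in R 4.3.3 (mean-variance trend, Benjamini-Hochberg over all 599 miRNAs). Fold changes are on that scale, which understates changes of low miRNAs. Arm ratios had 0.5 added to each arm, a mean of at least 20 in both arms and no trend. Named miRNAs are the 7 products, the 5 most like each of miR-7a-5p and miR-671-5p, neighbours in level of miR-7a-5p and up to 4 of each list; the miRNA with the highest spread among abundant ones was added after its value was seen. The members and lists were chosen with earlier results of these data known. The procedure was tested on simulated data.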

Additional observations from a re-analysis of the deposited data

Results flagged for a closer look

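Of 26 groups of 4 libraries examined (the 7 products, 4 arm ratios, the ratio of miR-7b-5p to miR-7a-5p and the library totals), a single value stood well apart from the remaining 3 of its group. By chance about 1 in 20 groups would, or 1.3 here. It was the log2 ratio of miR-7b-5p to miR-7a-5p in knockout replicate 5, at -1.62, where the other knockout libraries were between -1.49 and -1.47. The wild-type libraries ran more widely for the same ratio, with a mean of -1.63 ± 0.21 (SD, n = 4).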

How the results depend on the processing

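Of 138 alternative values for the 7 products, 21 changed sign and 0 passed the threshold (smallest adjusted p 0.579); of 52 for the arm ratios, 14 changed sign and 0 passed (smallest 0.777). Upper quartile scaling gave 0.020 for miR-7a-5p, 0.0058 for miR-7a-1-3p, 0.036 for miR-7b-3p and 0.011 for miR-671-5p. Leaving out 1 library gave -0.22 to 0.15 for miR-7a-5p, -0.12 to 0.31 for miR-7b-5p, -0.14 to 0.019 for miR-7a-1-3p, -0.24 to -0.02 for miR-7a-2-3p, -0.17 to 0.11 for miR-7b-3p and -0.18 to 0.084 for miR-671-5p, and arm ratio changes of -0.22 to 0.20 (miR-7a-1), -0.16 to 0.20 (miR-7a-2) and -0.22 to 0.43 (miR-7b). The change in the ratio of miR-7b-5p to miR-7a-5p kept its sign in 9 alternatives (0.04 to 0.18). The cause of these changes was not tested.

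The labels do not say that replicate numbers pair the libraries. After the genotype mean of each miRNA was subtracted, the log2 deviations of same-numbered libraries correlated at 0.0648, -0.0385 and 0.132. The replicate block on numbers 1, 2 and 4 gave -0.31 for miR-7a-5p, -0.092 for miR-7b-5p, -0.21 for miR-7a-2-3p, 0.16 for miR-671-5p and 0.46 for miR-671-3p. Its arm ratio changes were -0.19 (miR-7a-1), -0.094 (miR-7a-2) and -0.083 (miR-7b). The same 6 libraries without the block must give the same values, since each number holds a library of each genotype. Only the SE and p can differ. Under the block 1 of 170 arm ratios passed, that of miR-154 (adjusted p = 0.00877 by limma), which was named after its value was seen. Without the block, 0 passed in the same 6 libraries. Under the block the ratios of miR-7a-1, miR-7a-2, miR-7b and miR-671 all had an SE of 0.27, a spread pooled over hairpins. The ratio of miR-154 had a within-genotype SD of 0.67 over all libraries, exceeded by 1.76% of hairpins, so its p may be too small. The relation of miR-7b-5p with the library total passed in the values as deposited (rho 0.95, adjusted exact permutation p = 0.0214). Unscaled values tend to rise with their own sum, and the share of all miRNAs passing there is not given. Relations with the total, under other scalings and without single libraries, and the neuron sum without miR-128-3p were chosen after seeing the data. Under the stricter filter, miR-7b-3p and miR-671-5p were too low to be tested.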

Other observations

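In the rescaled values of the 599 tested miRNAs, 57 had an unadjusted exact permutation p under 0.05 for Spearman's rho with the total. Of these, 21 had a positive and 36 a negative sign, and only miR-7a-5p passed correction.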
